A study of Mus musculus with 12 samples.

Results

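The 10 genes described encode receptors by which T cells are costimulated or that mark activated T cells: Cd28, Icos, Il2ra, Il2rb, Il2rg, Tnfrsf9, Tnfrsf4, Tnfrsf18, Cd69 and Cd44. They were taken as a named list by gene symbol, without regard to their values, and all 10 were found among the 52636 gene identifiers of the count table. RNA was sequenced in bulk from dissociated tumors and livers of female FVB/NJ mice that carried an orthotopic Fo5 tumor, a piece of mammary tumor from founder line 5 of mice with a HER2 transgene under the MMTV promoter. The mice themselves were wild type, so that HER2 of the transgene was present in the tumor piece, and all groups carried such a tumor. The 4 groups were tumors of mice given the anti-HER2/CD3 antibody, tumors of mice given vehicle, livers of mice given the antibody and livers of mice given vehicle, with 3 libraries each and, by the design text, 3 mice per treatment. The antibody is a T cell dependent bispecific (TDB) whose 4D5 arm binds HER2 and whose 2C11 arm binds mouse CD3. It was given once into the tail vein at 5 mg/kg, and organs were taken 24 h later. Ages are not given in the labels.

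A T cell that meets antigen through its T cell receptor needs a second, costimulatory signal to be fully activated. CD28 and ICOS, of the immunoglobulin superfamily, give that signal when they bind CD80 or CD86 and ICOS ligand. Activated T cells then build the high-affinity receptor for interleukin-2 from the alpha chain (Il2ra, CD25), the beta chain (Il2rb, CD122) and the common gamma chain (Il2rg, CD132), of which beta and gamma carry the signal to JAK kinases and STAT5. 4-1BB (Tnfrsf9), OX40 (Tnfrsf4) and GITR (Tnfrsf18), of the tumor necrosis factor receptor superfamily, prolong the response and signal through TRAF adaptors. CD69 is a lectin-like protein that appears on lymphocytes within hours of activation and holds them in tissue, and CD44 is a receptor for hyaluronan that is high on memory and effector T cells. CD44 is also made by many epithelial and stromal cells, CD122 by natural killer (NK) cells, the gamma chain by most leukocytes, and CD25 and GITR by regulatory T cells.

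Libraries held 18460159 to 29396324 counts. Levels are given as CPM (counts per 1000000 counts) scaled by the trimmed mean of M-values (TMM) over the 12 libraries. The third TDB liver library had 2.05% of its counts from mitochondrial genes against 0.847% to 1.28% in the other liver libraries. Some liver results, among them that of Il2rg, are therefore also given without it. Liver libraries differed in how their deviations from the mean of their own group went with exon length. Spearman's rho was -0.50, -0.37 and 0.55 in TDB livers and 0.098, -0.37 and 0.38 in vehicle livers (across 16535 genes, which are not independent replicates). Being taken within a group, these values do not compare TDB with vehicle livers. Hepatocyte genes marked the livers, with summed levels of 146349 to 272759 CPM in the liver libraries against 0.0592 to 23.8 CPM in the tumor libraries. Mammary tumor epithelial genes such as Erbb2, which encodes HER2, summed to 13960 to 16477 CPM in the tumors against 390 to 899 CPM in the livers.

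In tumors, RNA of nearly all of these receptors was higher 24 h after the antibody. TDB libraries lay above every vehicle library for 9 of the 10 genes, and below every vehicle library for the tenth, Tnfrsf18. How often groups separated in this way over all genes was not counted, so this is a description of the 10. Il2ra, Il2rb and Cd69 differed most by fold, and Tnfrsf18 and Cd44, the most abundant, least. Of the 9 receptors tested 8 rose and 0 fell at an adjusted p under 0.05 (edgeR, quasi-likelihood, adjusted over all genes), where 15.8% of the 15454 genes tested rose and 13.1% fell. Scaling moved that split over all genes, with 2437 higher and 2019 lower by TMM, 2075 and 2991 by the upper quartile, and 1856 and 3994 by library totals alone. Cd28, Il2ra, Il2rb and Cd69 reached the minimum count of that test in TDB libraries alone, so that a difference was a condition for testing these 4, and the count is given as a description.

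T cell genes moved in the same libraries. Cd3e, a signalling chain of the T cell receptor complex, had 65, 78 and 28 counts in TDB tumors and 0 in each vehicle tumor, at least 51.5-fold higher against a floor of 3 counts over the vehicle libraries. Cd8a, the coreceptor of cytotoxic T cells, had 2.47, 1.88 and 1.23 CPM in TDB tumors, against 0.0922, 0.0607 and 0 CPM in vehicle tumors. Cd4, the coreceptor of helper T cells that macrophages also make, had 2.02, 2.29 and 2.18 CPM in TDB tumors, against 1.94, 0.880 and 2.07 CPM in vehicle tumors. Of 12 T cell marker genes, 9 rose, Thy1 fell, and Cd4 and Cd247 did not pass, and their summed level was 17.9 to 22.6 CPM in TDB tumors against 11.99 to 16.7 CPM in vehicle tumors. The summed level of 6 NK cell genes was 3.81 to 6.40 CPM in TDB tumors against 0.152 to 0.207 CPM in vehicle tumors, and all 4 of those tested rose. The T cell markers that rose and the NK cell genes tested reached the minimum count in TDB tumors alone. A difference was thus a condition for testing them, and these counts are a description. In bulk RNA, more T cells and more receptor RNA per T cell cannot be told apart, and the part of either in the results was not tested.

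**Figure D1:**
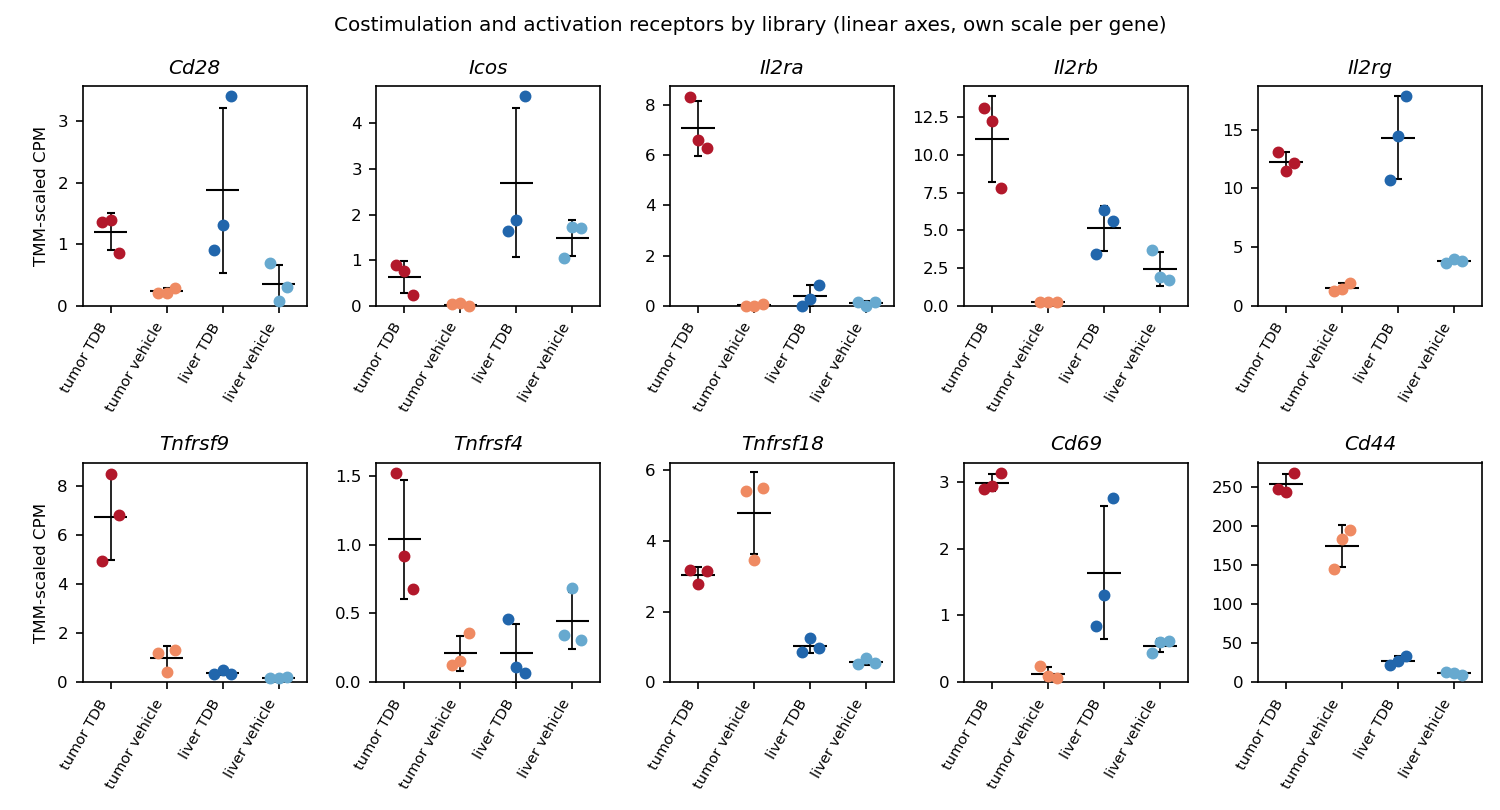
Levels of the 10 receptors in each library, as TMM-scaled CPM on a linear axis with its own scale for each gene, where each point is a library and the bars are the mean and SD (n = 3). Points of TDB tumors lie above those of vehicle tumors in every panel but that of Tnfrsf18, where they lie below, and Cd44 reaches 269 CPM while no other gene passes 18 CPM.

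Of the costimulatory receptors of the immunoglobulin superfamily, Cd28 (ENSMUSG00000026012, GRCm38 chromosome 1, 60716800 to 60773359, plus strand) had 1.37, 1.40 and 0.860 CPM in TDB tumors, against 0.215, 0.212 and 0.296 CPM in vehicle tumors. The groups did not overlap, and Cd28 rose by 2.40 on the log2 scale (SE 0.33, adjusted p = 0.000823). Icos (ENSMUSG00000026009, GRCm38 chromosome 1, 60977927 to 61000320, plus strand), which lies 204568 bases from Cd28 with the inhibitory receptor gene Ctla4 between them, was too low to test in the fit of the 6 tumor libraries. It had 30, 33 and 8 counts in TDB tumors, against 1, 2 and 0 counts in vehicle tumors. Per TMM-scaled library size the summed counts were 21.4 times as high in TDB tumors (95% exact conditional interval 7.03 to 106, counting error only). The third TDB tumor held the lowest level of both Cd28 and Icos within its group, as it did of Cd3e.

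The 3 chains of the interleukin-2 receptor rose together in tumors, each with groups that did not overlap. Il2ra (ENSMUSG00000026770, GRCm38 chromosome 2, 11642807 to 11693193, plus strand) was almost without counts in vehicle mice, with 280, 288 and 205 counts in TDB tumors, against 0, 0 and 2 in vehicle tumors. These counts correspond to 8.34, 6.59 and 6.29 CPM in TDB tumors, against at most 0.0592 CPM in vehicle tumors, and the summed counts per TMM-scaled library size were 349 times as high (95% interval 96.4 to 2890). The fitted log2 fold change was 8.30 (SE 0.46, adjusted p = 3.41e-06). A single vehicle library carries the 2 counts, so the size of the fold is loosely bound from above.

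Il2rb (ENSMUSG00000068227, GRCm38 chromosome 15, 78479256 to 78495271, minus strand) had 13.1, 12.2 and 7.83 CPM in TDB tumors, against 0.276, 0.273 and 0.237 CPM in vehicle tumors, a log2 change of 5.46 (SE 0.27, adjusted p = 1.64e-06). Il2rg (ENSMUSG00000031304, GRCm38 chromosome X, 101264378 to 101268255, minus strand) had 13.1, 11.5 and 12.1 CPM in TDB tumors, against 1.23, 1.43 and 1.95 CPM in vehicle tumors, a log2 change of 3.07 (SE 0.18, adjusted p = 4.41e-06). Of the 3 chains, the gamma chain, shared with other cytokine receptors, was thus the one with the highest level in vehicle tumors and the smallest fold change. In the annotation 30.5% of the exonic bases of Il2rg are shared with Gm20489 on the same strand, which was listed at 0 counts in all 12 libraries.

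The promoter of Il2ra is shown because this gene had the largest fold change of the 10. It runs over 300 bases at chr2:11642542-11642841 (RefSeq, GRCm38.p6, plus strand; C57BL/6J sequence, while the mice were FVB/NJ), 250 bases before to 50 bases after the annotated start, and capitals mark matches to the motifs searched. These were AP-1 (TGANTCA), STAT (TTCNNNGAA), the NFAT core (GGAAA) and NF-kB (GGNNNTTCC), each searched on both strands. Windows of this kind were at hand for 6 of the 10 genes.
Il2ra: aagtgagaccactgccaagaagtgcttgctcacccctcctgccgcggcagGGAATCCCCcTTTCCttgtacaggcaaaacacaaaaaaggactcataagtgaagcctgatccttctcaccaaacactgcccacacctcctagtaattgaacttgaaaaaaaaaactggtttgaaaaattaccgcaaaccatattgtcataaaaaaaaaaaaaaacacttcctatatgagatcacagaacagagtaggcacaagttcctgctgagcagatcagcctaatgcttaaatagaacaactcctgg
The window holds 1 NF-kB match and, 190 bases before the start, 1 NFAT core match. Of 32851 such windows of the mouse genome, 18.5% hold the NF-kB letters and 61.3% the NFAT core, and a match is a description of letters and not of binding.

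The 3 genes of the tumor necrosis factor receptor superfamily, all on chromosome 4, did not move alike in tumors: Tnfrsf9 and Tnfrsf4 rose, and Tnfrsf18 had lower values that missed the threshold. Tnfrsf9 (ENSMUSG00000028965, GRCm38, 150914562 to 150946102, plus strand) had 4.94, 8.52 and 6.82 CPM in TDB tumors, against 1.20, 0.425 and 1.33 CPM in vehicle tumors, a log2 change of 2.86 (SE 0.38, adjusted p = 0.00133). Tnfrsf4 (ENSMUSG00000029075, GRCm38, 156013843 to 156016612, plus strand) had 1.52, 0.916 and 0.675 CPM in TDB tumors, against 0.123, 0.152 and 0.355 CPM in vehicle tumors, a log2 change of 2.36 (SE 0.47, adjusted p = 0.00584). Both pairs of groups were separate.

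Tnfrsf18 (ENSMUSG00000041954, GRCm38, 156026164 to 156028895, plus strand), which lies 9552 bases from Tnfrsf4, had 3.19, 2.79 and 3.16 CPM in TDB tumors, against 5.41, 3.46 and 5.50 CPM in vehicle tumors. All TDB values lay below all vehicle values, with a log2 change of -0.57 (SE 0.20, adjusted p = 0.0661). Over the alternatives run, its adjusted p ranged between 0.0113 and 0.201, and it passed as lower with upper quartile scaling (adjusted p = 0.0398), with library totals alone (adjusted p = 0.0231), without a filter on low counts (adjusted p = 0.0368) and without the second vehicle tumor (adjusted p = 0.0113). Vehicle tumors held 176, 114 and 186 Tnfrsf18 counts, with 0 counts of Cd3e and 0 of Foxp3, the transcription factor of regulatory T cells. Of 12 T cell markers Cd3e alone had no counts in any vehicle tumor, and of 4 regulatory T cell markers 2 had none. Counts of the others differed widely there, with Cd3g at 6, 4 and 1, Thy1 at 351, 295 and 453, and Ikzf2, a regulatory T cell marker, at 170, 219 and 204. Which cells carried the Tnfrsf18 RNA was not tested. In the annotation 27.2% of the exonic bases of Tnfrsf18 are shared with Gm16008 on the opposite strand, which had at most 9 counts in a library, and whether counting used strand is not stated in the labels.

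Promoters are shown of Tnfrsf9, a gene of this family that rose, and of Tnfrsf18, the one with lower values. The first runs at chr4:150927749-150928048 and is the second of 2 windows annotated for Tnfrsf9, the one with more matches, and the other runs at chr4:156026072-156026371 (both RefSeq, GRCm38.p6, plus strand). Capitals mark the same motifs as above, and neighbouring matches can share letters.
Tnfrsf9: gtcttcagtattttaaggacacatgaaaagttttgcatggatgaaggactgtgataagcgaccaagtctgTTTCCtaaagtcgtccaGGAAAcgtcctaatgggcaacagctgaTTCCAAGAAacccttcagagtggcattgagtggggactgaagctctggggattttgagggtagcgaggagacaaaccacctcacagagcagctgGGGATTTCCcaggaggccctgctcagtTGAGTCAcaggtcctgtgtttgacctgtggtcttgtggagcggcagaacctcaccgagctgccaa
Tnfrsf18: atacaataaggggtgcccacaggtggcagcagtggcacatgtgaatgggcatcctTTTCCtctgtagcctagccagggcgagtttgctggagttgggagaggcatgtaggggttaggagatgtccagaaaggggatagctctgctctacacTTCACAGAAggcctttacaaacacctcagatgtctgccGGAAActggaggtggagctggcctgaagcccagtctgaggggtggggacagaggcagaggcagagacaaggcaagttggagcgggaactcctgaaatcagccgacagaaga
The Tnfrsf9 window holds 1 AP-1 match 15 bases before the start, 1 NF-kB match 42 bases before it, 1 STAT match 136 bases before it and 3 NFAT core matches, one of which lies within the NF-kB match. The Tnfrsf18 window holds 1 STAT match 99 bases before the start and 2 NFAT core matches, with none of the AP-1 or NF-kB letters. AP-1 letters occur in 7.81% and STAT letters in 8.30% of all windows. The other Tnfrsf9 window, and those of Cd44 and Il2rg, hold 2 NFAT core matches each and none of the other motifs. That of Tnfrsf4, which also rose, holds 1 NFAT core match and none of the others. A link between these letters and the changes was not tested.

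Cd69 (ENSMUSG00000030156, GRCm38 chromosome 6, 129267325 to 129275436, minus strand) had 2.89, 2.93 and 3.13 CPM in TDB tumors, against 0.246, 0.0910 and 0.0592 CPM in vehicle tumors. Its TDB values lay closer together than those of any other receptor in relation to their mean, and it rose by a log2 change of 4.55 (SE 0.37, adjusted p = 3.87e-05). Cd44 (ENSMUSG00000005087, GRCm38 chromosome 2, 102811141 to 102901665, minus strand) had 248, 244 and 269 CPM in TDB tumors, against 145, 184 and 195 CPM in vehicle tumors. It rose by a log2 change of 0.62 (SE 0.11, adjusted p = 0.00376), which did not pass in the fit of all 12 libraries (0.54, SE 0.18, adjusted p = 0.0903). Cd44 made up 83.4% to 86.7% of the counts of the 10 genes in TDB tumors, against 94.3% to 96.8% in vehicle tumors.

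**Figure D2:**
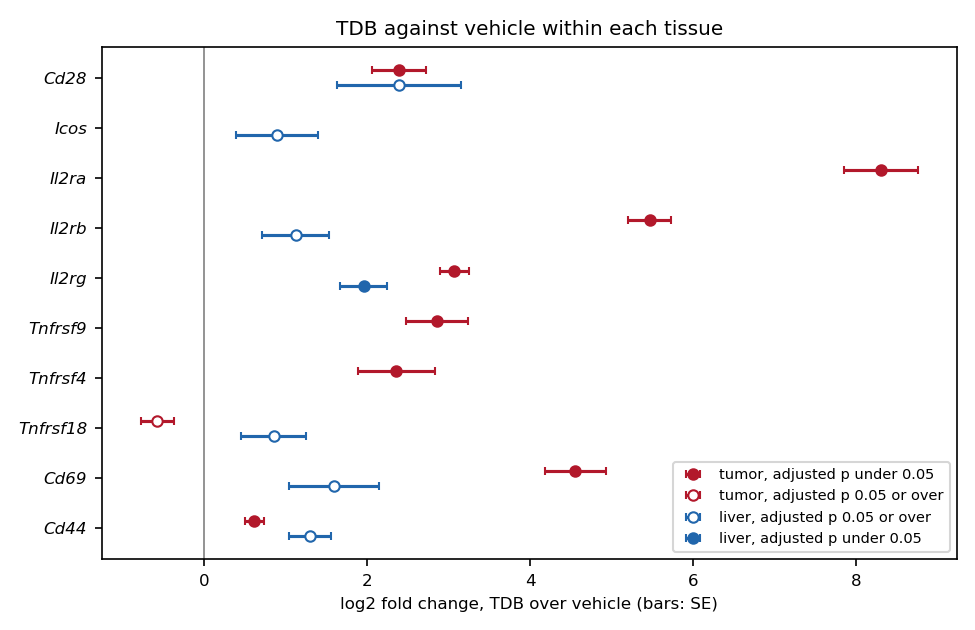
Log2 fold change of TDB over vehicle with its SE for each receptor tested in tumor (red) and liver (blue), filled where the adjusted p is under 0.05. In tumor 8 filled points run between 0.62 for Cd44 and 8.30 for Il2ra, and in liver the filled point is that of Il2rg at 1.96.

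In liver, Il2rg was the receptor that rose after the antibody, and 6 of the 10 receptors had TDB values above every vehicle value. The share of all genes whose liver groups separated so was not counted, so this too is a description of the 10. Il2rg had 10.7, 14.4 and 17.8 CPM in TDB livers, against 3.64, 3.95 and 3.78 CPM in vehicle livers, a log2 change of 1.96 (SE 0.29, adjusted p = 0.0421). Of 7 receptors tested 1 rose and 0 fell, where 0.513% of the 13657 genes tested rose, and at an unadjusted p under 0.05 there were 5 higher receptors, where 798 of the 13657 genes were higher. Cd28, Tnfrsf18 and Cd69 reached the minimum count in TDB livers alone. A difference was thus a condition for testing these 3, and both counts are given as a description. Without the third TDB liver Il2rg still passed (1.77, SE 0.26, adjusted p = 0.0201). It did not pass with limma-voom (adjusted p = 0.0518), without the second TDB liver (adjusted p = 0.221), or without any 1 of the 3 vehicle livers (adjusted p = 0.190 to 0.297).

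The values of Cd44 separated the liver groups, with 22.6, 26.9 and 33.9 CPM in TDB livers, against 12.7, 12.1 and 9.95 CPM in vehicle livers. Its log2 fold change of 1.31 (SE 0.26, adjusted p = 0.113) passed with DESeq2 (adjusted p = 0.000554) and in the fit of all 12 libraries (adjusted p = 0.00439). Cd28 had 0.914, 1.31 and 3.41 CPM in TDB livers, against 0.694, 0.0859 and 0.309 CPM in vehicle livers (log2 fold change 2.40, SE 0.76, adjusted p = 0.369). Cd69 had 0.849, 1.31 and 2.75 CPM in TDB livers, against 0.434, 0.602 and 0.617 CPM in vehicle livers (1.60, SE 0.55, adjusted p = 0.439). The third TDB liver held the highest value of Cd28, Cd69 and Cd44, and without it their log2 fold changes were 1.65, 1.00 and 1.13.

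For the other receptors, liver groups differed less. Il2rb had 3.46, 6.32 and 5.63 CPM in TDB livers, against 3.73, 1.89 and 1.70 CPM in vehicle livers, groups that overlapped (1.13, SE 0.41, adjusted p = 0.474). Icos had 1.63, 1.88 and 4.59 CPM in TDB livers, against 1.04, 1.72 and 1.70 CPM in vehicle livers (0.90, SE 0.50, adjusted p = 0.744), and 0.28 without the third TDB liver. Tnfrsf18 had 0.849, 1.25 and 0.983 CPM in TDB livers, against 0.520, 0.687 and 0.540 CPM in vehicle livers (0.86, SE 0.40, adjusted p = 0.671). Here its values lay on the higher side with TDB, unlike in tumors.

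Il2ra, Tnfrsf9 and Tnfrsf4 were too low to test in the fit of the 6 liver libraries. Il2ra had 0, 5 and 13 counts in TDB livers, against 2, 0 and 2 counts in vehicle livers, groups that overlapped. Its count ratio of 3.38 had an interval of 1.11 to 13.7, which covers counting error only. Most of its TDB counts lay in the third TDB liver, so this ratio does not show a rise across livers. Tnfrsf9 had 5, 9 and 5 counts in TDB livers, against 2, 2 and 3 in vehicle livers (ratio 2.04, interval 0.820 to 5.74). Tnfrsf4 had 7, 2 and 1 counts in TDB livers, against 4, 8 and 4 in vehicle livers (ratio 0.469, interval 0.190 to 1.10). The intervals of Tnfrsf9 and Tnfrsf4 include a ratio of 1, though each TDB liver lay above each vehicle liver for Tnfrsf9.

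T cell markers were present in the livers of vehicle mice. Cd3e had 3.92, 3.08 and 4.72 CPM in TDB livers, against 3.56, 1.89 and 2.08 CPM in vehicle livers. Cd8a rose, with 3.46, 3.65 and 5.83 CPM in TDB livers, against 0.867, 0.430 and 0.386 CPM in vehicle livers (log2 fold change 2.98, SE 0.44, adjusted p = 0.0426). The 12 T cell markers summed to 45.1 to 48.8 CPM in TDB livers against 22.1 to 25.3 CPM in vehicle livers, and monocyte and macrophage genes to 472 to 737 CPM against 460 to 596 CPM. Their part in the liver values was not tested.

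Whether the antibody effect differed between the organs was asked with an interaction term fitted to all 12 libraries. Both tissues came from the same mice by the design text, and this fit and those of tumor against liver treat the libraries as independent. Il2rb was the receptor whose effect differed, larger in tumor by 4.29 on the log2 scale (SE 0.52, adjusted p = 0.00104), 1 of 10 tested where 1.83% of 16557 genes had a larger effect in tumor. The other differences, tumor minus liver, were 6.41 for Il2ra (SE 1.97, adjusted p = 0.145), 3.34 for Tnfrsf4 (SE 0.94, adjusted p = 0.105), 3.33 for Icos (SE 1.02, adjusted p = 0.142) and 2.90 for Cd69 (SE 0.73, adjusted p = 0.0678). They were smaller for Tnfrsf9 at 1.77 (SE 0.83, adjusted p = 0.414), Il2rg at 1.07 (SE 0.32, adjusted p = 0.129) and Cd28 at -0.05 (SE 1.03, adjusted p = 1.00). Tnfrsf18 and Cd44 had negative differences of -1.48 (SE 0.40, adjusted p = 0.0943) and -0.72 (SE 0.26, adjusted p = 0.233). Without the third TDB liver 5 receptors passed, namely Il2rb, Cd69, Il2rg, Icos and Il2ra, and calls of a larger effect in tumor rose over all genes as well, to 525 of 16974 genes, against 303 of 16557 with it.

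Tumor was then set against liver within each treatment, which shows where the receptors stood with and without the antibody. Both comparisons and the interaction share libraries, so their values are given side by side. In vehicle mice 3 receptors were higher in tumor, where 39.5% of genes were, and 4 were lower, where 36.1% of genes were. In TDB mice 6 receptors were higher in tumor, where 36.6% of genes were, and 1 was lower, where 35.5% of genes were. These contrasts lean on the scaling, since TMM factors were 1.49 to 1.57 in tumors and 0.595 to 0.743 in livers, and with library totals alone the median of all genes moved to 1.43 and 1.19, against 0.11 and 0.06 with TMM. On that scale 8 receptors were higher and 0 lower in the tumors of TDB mice, where 10372 genes were higher and 2868 lower, and 3 were higher and 2 lower in the tumors of vehicle mice, where 10862 genes were higher and 2815 lower.

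Cd44, Tnfrsf18 and Tnfrsf9 were higher in tumor under both treatments. The log2 difference of tumor minus liver was 3.19 for Cd44 in TDB mice (SE 0.20, adjusted p = 3.09e-08) and 3.91 in vehicle mice (SE 0.21, adjusted p = 7.01e-09). It was 1.56 for Tnfrsf18 in TDB mice (SE 0.26, adjusted p = 0.000205) and 3.03 in vehicle mice (SE 0.30, adjusted p = 1.63e-06), and 4.09 for Tnfrsf9 in TDB mice (SE 0.44, adjusted p = 4.35e-06) and 2.32 in vehicle mice (SE 0.56, adjusted p = 0.00261). Cd44 values of the 4 groups did not overlap, in the order TDB tumor, vehicle tumor, TDB liver and vehicle liver. Those of Tnfrsf18 did not overlap either, with vehicle tumor above TDB tumor.

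Il2rb stood on opposite sides in the 2 treatments. It was higher in tumor than in liver by 1.10 in TDB mice (SE 0.31, adjusted p = 0.00694), and lower in tumor than in liver in vehicle mice, by -3.19 (SE 0.42, adjusted p = 2.28e-05). Il2ra was higher in TDB tumors than in TDB livers by 4.22 (SE 0.65, adjusted p = 9.83e-05), while its 3 other groups overlapped near 0. Tnfrsf4 was higher in TDB tumors than in TDB livers by 2.28 (SE 0.63, adjusted p = 0.00590), though TDB tumors and vehicle livers overlapped.

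Icos was lower in tumor than in liver under both treatments, by -2.07 in TDB mice (SE 0.52, adjusted p = 0.00333) and -5.40 in vehicle mice (SE 0.81, adjusted p = 7.48e-05). With library totals alone the difference in TDB mice was -0.98 and did not pass (adjusted p = 0.110). Cd69 was lower in vehicle tumors than in vehicle livers (-2.03, SE 0.62, adjusted p = 0.00993), which library totals alone ended (-0.73, adjusted p = 0.318), and its difference in TDB mice was 0.87 (SE 0.40, adjusted p = 0.0672). Il2rg was -0.23 in TDB mice (SE 0.21, adjusted p = 0.349) and lower in vehicle tumors (-1.30, SE 0.24, adjusted p = 0.000383), and library totals alone turned these to 0.89 (adjusted p = 0.00394) and 0.03. Cd28 did not pass in either comparison (-0.62 in TDB mice and -0.57 in vehicle mice), and its TDB tumors and TDB livers overlapped, as did its vehicle groups.

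Per kilobase of exon, a scale on which levels of different genes can be compared, Cd44 led in TDB tumors (37.4 ± 1.96 CPM per kilobase, SD, n = 3), ahead of Il2rg (5.12 ± 0.344), Il2rb (2.58 ± 0.658), Tnfrsf9 (2.48 ± 0.656), Tnfrsf18 (2.00 ± 0.145) and Il2ra (1.24 ± 0.193). Il2rb, Tnfrsf9 and Tnfrsf18 lay within their spread of each other. In vehicle tumors Cd44 (25.8 ± 3.94) was followed by Tnfrsf18 (3.14 ± 0.757) and Il2rg (0.644 ± 0.157), and Il2ra came last. In TDB livers Il2rg (5.996 ± 1.49) and Cd44 (4.10 ± 0.845) led, and in vehicle livers Cd44 (1.71 ± 0.216) and Il2rg (1.59 ± 0.0652), neighbours that lay within their spread. Il2ra was last in both liver groups as well.

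The receptors were also set beside the T cell receptor complex in the same library, as counts per summed count of Cd3e, Cd3d and Cd3g. These summed to 151, 188 and 72 in TDB tumors, to 241, 240 and 204 in TDB livers and to 97, 88 and 113 in vehicle livers. In vehicle tumors they summed to 7, 6 and 1, too few for a ratio. Other cells than T cells carry several of the receptors, so the ratio is not a level per T cell.

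Per Cd3 count, Il2ra was at 1.85, 1.53 and 2.85 in TDB tumors, against 0, 0.0208 and 0.0637 in TDB livers, and Il2rb at 2.91, 2.85 and 3.54 against 0.220, 0.463 and 0.422. Tnfrsf9 was at 1.10, 1.98 and 3.08 in TDB tumors, against 0.0207, 0.0375 and 0.0245 in TDB livers. Icos was the exception, at 0.199, 0.176 and 0.111 in TDB tumors, within the range of 0.104, 0.138 and 0.343 in TDB livers. Per count of all T cell markers Cd28 overlapped too, at 0.0481 to 0.0634 in TDB tumors against 0.0203 to 0.0698 in TDB livers. In liver, between TDB and vehicle, exact two-sided permutation tests of the log2 ratio, which with 3 against 3 libraries cannot go below p = 0.1, passed for none of 9 receptors. Il2rg per Cd3 count was at 0.680, 1.05 and 1.33 in TDB livers, against 0.433, 0.523 and 0.434 in vehicle livers, a log2 difference of 1.09 (exact permutation p = 0.1, adjusted p = 0.45).

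**Figure D3:**
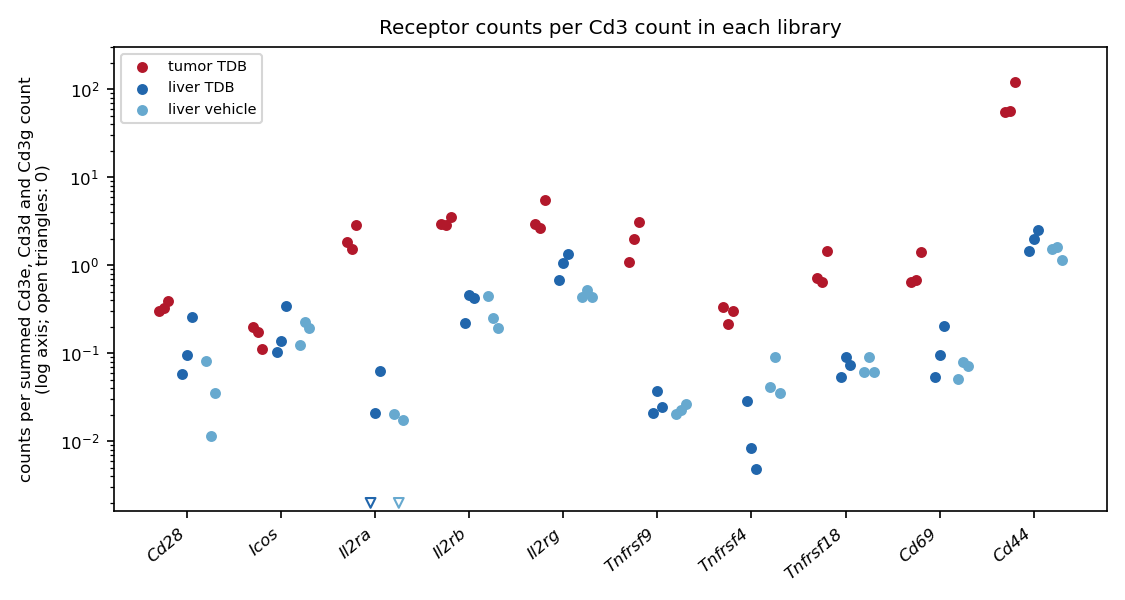
Counts of each receptor per summed count of Cd3e, Cd3d and Cd3g on a log axis, one point per library, with open triangles for 0; vehicle tumors are left out because they held 1 to 7 Cd3 counts. TDB tumors lie above both liver groups for all receptors but Icos, for which the 3 groups overlap.

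Other genes of the same pathways followed in tumor to differing degrees, where over all 15454 genes tested 15.8% rose and 13.1% fell. Of 12 ligands and gamma chain cytokines 5 were tested and 3 rose: Cd86, the ligand of CD28 (log2 fold change 3.25, SE 0.31), Il7 (2.20, SE 0.35) and Il15 (1.49, SE 0.19), both gamma chain cytokines. Icosl (0.36) and Tnfsf9 (-0.73) did not pass. Il2 itself was hardly detected, with 0, 4 and 2 counts in TDB tumors, against 6, 2 and 1 in vehicle tumors. Of 5 partner chains of the gamma chain family 4 were tested and 3 rose, namely Il21r (3.00, SE 0.21), Il7r (1.27, SE 0.37) and Il4ra (1.05, SE 0.10), while Il15ra (0.34) did not pass. The median over the tested genes was 1.49 for ligands and 1.16 for partner chains, beside -0.02 over all genes.

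Of 11 other costimulatory and adhesion receptors 8 were tested, 7 rose and 0 fell (median 3.94), led by Cd226 (4.65, SE 0.65), an activating receptor of T and NK cells, and by Cd2 (4.52, SE 0.59), Cd5 (4.41, SE 0.47) and Cd6 (4.26, SE 0.59), which modulate T cell receptor signalling. All 14 genes of T cell receptor and costimulation signalling were tested, of which 12 rose and 0 fell (median 1.95). Among those that rose were the adaptor Lat (4.91, SE 0.41) and the kinase Prkcq (3.77, SE 0.66), and Bcl10 and Traf2 did not pass (0.14 and 0.028). Several genes, among them Cd226, Cd2, Cd5, Cd6, Lat and Prkcq, reached the minimum count in TDB tumors alone. For these a difference was a condition for testing. In liver none of these 4 lists held a gene that passed, at 5, 4, 6 and 13 genes tested, with 1, 1, 6 and 6 genes at an unadjusted p under 0.05, where 1105 of all 13657 genes were.

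Of 10 genes of interleukin-2 receptor signalling and feedback, 5 rose and 1 fell in tumor (median 0.46). Socs1, a suppressor of cytokine signalling that STAT factors induce, had 24.1, 38.3 and 26.2 CPM in TDB tumors, against 0.184, 0.0607 and 0.444 CPM in vehicle tumors (7.06, SE 0.41). Socs3 (2.54, SE 0.35), Cish (0.88, SE 0.10), Jak3 (0.81, SE 0.08) and Bcl2l1 rose as well, and Bcl2, which restrains apoptosis, fell (-0.66, SE 0.12), while Jak1, Stat5a and Stat5b had log2 fold changes of 0.21, 0.11 and 0.12 that did not pass. In liver Socs1 was the gene of this list that rose, with 3.20, 5.18 and 3.21 CPM in TDB livers, against 0.607, 0.859 and 0.463 CPM in vehicle livers (2.62, SE 0.40, adjusted p = 0.0430). Socs1 and Cish also follow cytokines other than interleukin-2.

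Genes tied to CD44 did not follow its rise: of 8 tested in tumor 1 rose and 3 fell (median -0.15). Msn, which links CD44 to actin, rose (0.73, SE 0.15). Has3, which makes hyaluronan, fell (-2.90, SE 0.32), as did the hyaluronan receptor Hmmr (-1.17, SE 0.15), also a gene of dividing cells, and Ezr, another actin linker (-0.26, SE 0.08). In liver 5 were tested and none passed, with 1 at an unadjusted p under 0.05, where 1105 of all 13657 genes were.

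**Figure D4:**
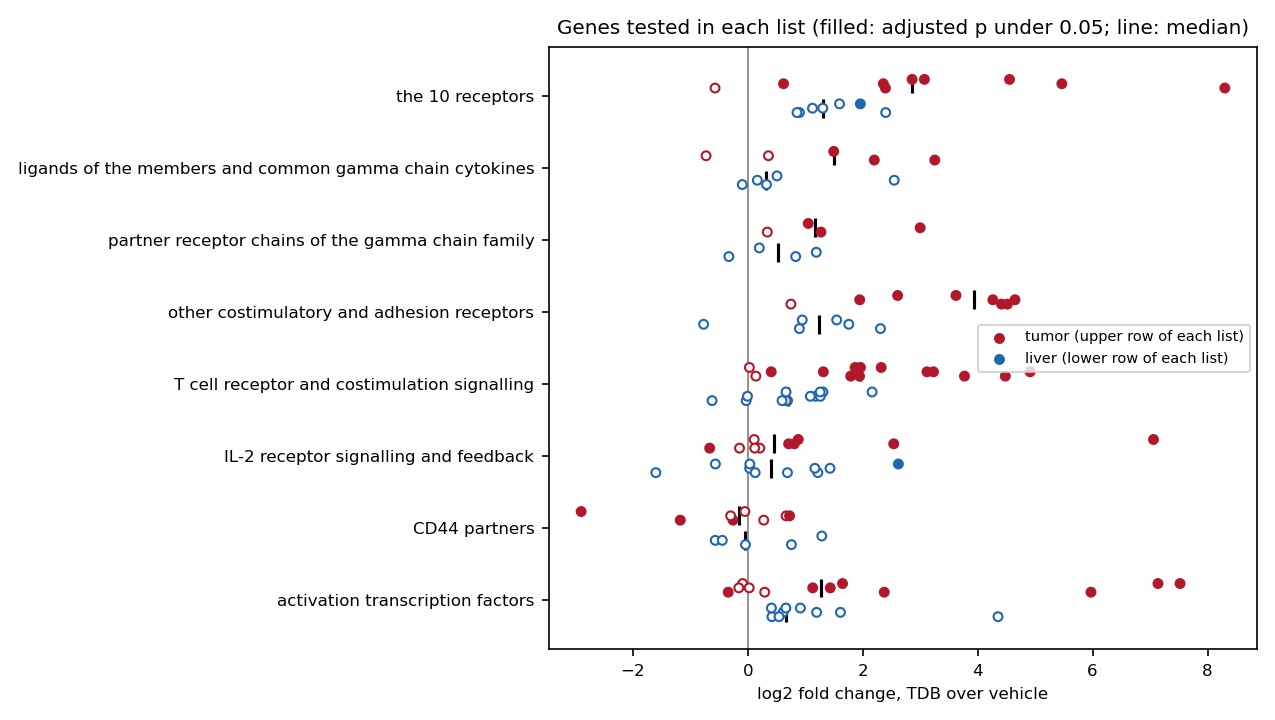
Log2 fold change of TDB over vehicle for each gene tested in the 10 receptors and in 7 lists of pathway genes, in tumor (red, upper row) and liver (blue, lower row), filled where the adjusted p is under 0.05, with a black line at the median. Tumor medians lie at 3.94 for other costimulatory and adhesion receptors, 2.86 for the 10 receptors and -0.15 for CD44 partners; the fitted value of Foxp3 has no vehicle counts behind it.

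Genes whose pattern over the 12 libraries was most like that of each receptor were found by the root mean square difference of centred log2 CPM among 16547 other genes. For Il2rb these were Tbx21 (0.43), the transcription factor T-bet, and Prf1 (0.48), perforin. For Icos they were Gimap3 (0.34) and Cd3g (0.45), for Cd28 Ipcef1 (0.48) and Rasgrp1 (0.49), and for Cd69 H2-Ea-ps (0.43) and Gpr171 (0.43). For Il2rg they were Irf8 (0.24), a transcription factor of myeloid and lymphoid cells, and Eif4e3 (0.24), and for Cd44 Apobec3 (0.20) and Gcnt1 (0.24). For Il2ra the nearest were 9330175E14Rik (0.72) and Ciita (0.89), the activator of MHC class II genes. For Tnfrsf9 they were Itgad (0.48) and Mgst2 (0.49), and for Tnfrsf4 Adora3 (0.56) and Gm35339 (0.58). Tnfrsf18 stood nearest to Ust (0.20) and Lpcat1 (0.22), which like it were higher in tumors than in livers, with Ust at 4.65, 3.91 and 3.68 CPM in TDB tumors, against 5.16, 4.61 and 6.39 CPM in vehicle tumors.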

How the data were processed

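RNA was measured in 12 bulk libraries, 3 for each of the 4 groups, which were taken from the sample titles. The authors deposited raw whole-number counts over 52636 Ensembl identifiers, and FPKM values, which were not used. GSNAP, limma and GRCm38 are named (without role or version) per the submitters' processing notes. For the counter, its strand setting and the annotation release, the sources used here give nothing. GENCODE M21 gave symbols for 52403 identifiers, and the 233 others, with at most 0.0192% of a library's counts, stayed in the tests.

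Tests on these counts used edgeR (version 4.0.16, R version 4.3.3), with TMM scaling (filterByExpr with a minimum count of 10 and total of 15, robust quasi-likelihood F test), within tumor and within liver over 6 libraries each, and over 12 libraries for the interaction and the comparisons of tissues. Benjamini-Hochberg adjustment ran over all genes tested, at 0.05 with no fold minimum. On simulated data the fits other than that within liver had to recover most large known changes, set in genes with high counts in both tissues. Recovery was not required of the liver fit, and genes with low counts were not covered. The SE is the size of the log2 fold change over the square root of F. Receptors per Cd3 count were tested by exact permutation and adjusted over 9 receptors. Intervals are 95% (exact conditional binomial for ratios) and cover counting error only.

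The receptors, lists, tests and alternatives were chosen with earlier results of these data known. Named were all 10 receptors, up to 4 genes with the largest change among those passing in tumor per pathway list (in lists with under 4 such genes, also the tested genes that did not pass), those passing in liver, 2 nearest genes per receptor, and Cd3e, Cd4, Cd8a and Foxp3. Some genes that this rule names are not reported here. Genes named beyond these (Thy1, Cd247, Ikzf2, Erbb2, Gm20489, Gm16008, Il2, Bcl10, Traf2, Jak1, Stat5a, Stat5b, Bcl2l1, Bcl2, Nr4a1, Ncr1, Klrb1c, Cd3d, Ctla4 and Kit) were chosen after their values were seen. Alternatives were other scalings, filters, tests (DESeq2 1.42.0, limma-voom with limma 3.58.1), fits with a replicate block or with all 12 libraries, each library left out, and, added after seeing the data, library totals alone. By the design text each treatment had 3 mice, so p-values measure the spread between mice together with that between their libraries. Tumor and liver came from the same mice. Fits over 12 libraries treat them as independent. Whether a tumor and a liver library of 1 number share a mouse is not labelled. Promoters came from a RefSeq table on GRCm38.p6.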

Additional observations from a re-analysis of the deposited data

Results flagged for a closer look

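The effect of TDB on Il2rb differed between tumor and liver by a test of the difference itself. The log2 fold change was larger in tumor by 4.29 (SE 0.52, adjusted p = 0.00104 by edgeR's quasi-likelihood test over 12 libraries), and over 21 alternatives its adjusted p stayed between 6.47e-12 and 0.00752. Il2rb was higher with TDB in 3 of 3 tumors than in any vehicle tumor, while in liver 2 of 3 TDB libraries lay above all vehicle libraries and the groups overlapped. Of the NK cell genes 4 were tested in the same fit, and 2, Ncr1 at 4.23 (SE 0.65, adjusted p = 0.00493) and Klrb1c at 4.45 (SE 0.78, adjusted p = 0.00934), also had larger effects in tumor. Of 12 T cell genes, all tested in it, 5 had larger effects in tumor as well, namely Cd3e, whose vehicle tumors were at 0 counts, Lat at 4.13 (SE 0.54, adjusted p = 0.00150), Cd3d at 4.01 (SE 0.74, adjusted p = 0.0126), Cd2 at 3.53 (SE 0.66, adjusted p = 0.0140) and Cd5 at 2.78 (SE 0.60, adjusted p = 0.0291). Over all genes in that fit, 303 of 16557 (1.83%) had a larger effect in tumor. The part of either cell type in the result was not tested.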

How the results depend on the processing

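Beside the 8 receptors that rose in tumor, the other fits called 8 or 9 higher, except for 6 with a minimum count of 30, which left 7 to test. In the fit of all 12 libraries the 8 included Icos and not Cd44. Tnfrsf18 was the 1 receptor called lower, in 4 fits. Icos was called higher in each of the 6 fits that tested it in tumor, with log2 fold changes of 3.78 to 5.18. Over all genes, 4456 calls in tumor became 1695 in the fit of all 12 libraries and 2942 to 4860 with 1 library left out. In liver the 1 receptor called became 2 in the fit of all 12 libraries, with DESeq2 and with the replicate block, 0 with limma-voom, and 0 to 1 with 1 library left out. The 73 genes called in liver became 323 in the fit of all 12 libraries, 352 with DESeq2, 145 without a filter, 350 with the replicate block and 14 to 163 with 1 library left out. For the interaction the 1 receptor became 6 with DESeq2, 4 with limma-voom, 2 with library totals alone, 2 without a filter and 1 to 5 with 1 library left out, and the 412 genes became 897, 258 with the replicate block and 241 to 696.

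Replicate numbers were not taken as pairs, because no label ties them to mice across tissues. Between tumor and liver of the same treatment, deviations of same-numbered libraries correlated at r of -0.039 to 0.096. TDB and vehicle libraries of a tissue came from different mice, with r of 0.01 to 0.26 in tumor and -0.06 to 0.46 in liver. In liver the edgeR fit with a replicate block, which joins different mice by number, called Cd44 (adjusted p = 0.0288).

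Directions that turned belonged to values that did not pass, except for Il2rg in vehicle mice. With library totals alone, tumor minus liver was 0.73 and 0.47 for Cd28 in vehicle and TDB mice, 0.25 for Tnfrsf4 in vehicle mice, and 0.028 and 0.89 for Il2rg in vehicle and TDB mice. The interaction of Cd28 was 0.020 with DESeq2, 0.013 with median-of-ratios factors, 0.011 with the replicate block and -0.88 to 0.76 with 1 library left out. Its tissue difference ranged over -1.02 to 0.26 in vehicle mice and -0.95 to 0.13 in TDB mice. Per Cd3 count in liver, leaving out 1 library gave -0.56 to 0.30 for Icos, -0.039 to 0.39 for Tnfrsf9 and -0.16 to 0.22 for Tnfrsf18, which was -0.16 per count of all T cell markers. The cause was not tested.

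Depth limits Icos in tumor and Il2ra, Tnfrsf9 and Tnfrsf4 in liver most, which were too low for the fits within a tissue. The spread between libraries of a group was wider in liver (biological coefficient of variation 32.3%) than in tumor (13.01%). Differences between mice and between their libraries cannot be told apart in it.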

Other observations

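Transcription factors that follow T cell activation moved unevenly in tumor. Of 12 tested, 7 rose and 1 fell (median log2 fold change 1.28, also with Foxp3 at its lower bound), where 15.8% of all genes tested rose and 13.1% fell. Tbx21, the master regulator of type 1 helper and cytotoxic programmes, had 63, 74 and 62 counts in TDB tumors, against 0, 1 and 0 in vehicle tumors (7.14, SE 0.53, adjusted p = 2.10e-05). Foxp3, of regulatory T cells, had 34, 21 and 14 counts in TDB tumors and 0 in each vehicle tumor, at least 20.8-fold higher against a floor of 3 counts over the vehicle libraries. Irf4, which scales with T cell receptor signal, rose by 5.97 (SE 0.46), and Batf, its partner, by 2.37 (SE 0.32). Tbx21, Foxp3, Irf4 and Batf reached the minimum count in TDB tumors alone, so that a difference was a condition for testing them. Nr4a1, an immediate early gene that tumor cells also make, fell by 0.34 (SE 0.10, adjusted p = 0.0327) at 60.4 to 77.8 CPM in TDB tumors against 85.1 to 99.6 CPM in vehicle tumors. In liver none of 9 tested passed, with 3 at an unadjusted p under 0.05, where 1105 of all 13657 genes were.

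Of markers of other leukocytes in tumor, 7 of 9 monocyte and macrophage genes, 4 of 6 tested dendritic cell genes, 2 of 3 tested neutrophil genes and all 3 tested regulatory T cell genes rose, and 0 fell. Over all 15454 genes tested in tumor, 15.8% rose and 13.1% fell. Some of these markers, among them Foxp3 and Ctla4, reached the minimum count in TDB tumors alone, so that a difference was a condition for testing them. B cell genes were too low to test, at 0.916 to 1.37 CPM summed in TDB tumors against 0.154 to 0.207 CPM in vehicle tumors. None of 5 fibroblast genes passed, 1 of 4 endothelial genes and 2 of 6 mammary tumor epithelial genes fell, and the 1 tested mast cell gene, Kit, and 2 tested hepatocyte genes did not pass.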
